A study of Mus musculus with 10 samples.

Results

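The genes described are Xpc, Rad23b, Cetn2 and Cetn3, 4 of the 36586 genes named in the expression tables. They were picked by symbol and not by a cut on measured values, but with earlier results of these data known. XPC recognises distorted DNA at the start of global-genome nucleotide excision repair. RAD23B holds XPC in a stable form and also carries ubiquitinated proteins to the proteasome, and centrin 2 is the calcium-binding small subunit of the complex. In embryonic stem cells the same complex is known as a coactivator that works with OCT4 and SOX2. Centrin 3 is a relative of centrin 2 best known from the centriole.

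RNA was measured in 4 libraries of the mouse embryonic stem cell line JM8.N4, with 1 library per group and no replicates: wild-type cells, Rad23b-/- cells, and Rad23b-/- cells in which either of 2 independent shRNAs against Xpc was expressed (Xpc knockdown 1 and knockdown 2). Both knockdowns therefore also carry the Rad23b-/- genotype. Chromatin was precipitated with affinity-purified guinea pig antibodies to residues 108 to 177 of RAD23B, beside normal IgG, in 2 wild-type replicates of the D3 embryonic stem cell line and 1 library of Xpc-/- embryonic stem cells, whose line is not named. Whether a mutant line was 1 clone, and whether the ChIP replicates came from separate cultures, is not given in the sources used here. All 6 stem cell markers examined were expressed in every RNA library, with a summed level of 4545, 2970, 4261 and 3545 RPKM (read counts scaled by transcript length and library size) in wild-type, Rad23b-null, knockdown 1 and knockdown 2 cells. Of these, Esrrb and Nanog were at least 2-fold below wild type in all 3 mutants, and their part in the members' values was not tested. The 6 fibroblast markers summed to between 1.65 and 2.38 RPKM, with Lum at 0 in wild-type cells. The depth of the RNA libraries is not given. Among very low RPKM values, the most common quotient of wild type over mutant was 1.23 to 1.29. This is the mutant depth relative to wild type only if equal read numbers lie behind those values.

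Promoter sequences are printed for the members that had an entry, which leaves out Xpc. RefSeq (GRCm38.p6) gave the 250 bases before the start for 3 of the 4 members: Rad23b (chr4:55349792-55350041, plus strand), Cetn2 (chrX:72918345-72918594, minus strand) and Cetn3 (chr13:81782997-81783246, plus strand). They are written 5′ to 3′ in the direction of transcription, and capitals mark matches to the CCAAT box (CCAAT or ATTGG) and the GC box (GGGCGG or CCGCCC).
Rad23b: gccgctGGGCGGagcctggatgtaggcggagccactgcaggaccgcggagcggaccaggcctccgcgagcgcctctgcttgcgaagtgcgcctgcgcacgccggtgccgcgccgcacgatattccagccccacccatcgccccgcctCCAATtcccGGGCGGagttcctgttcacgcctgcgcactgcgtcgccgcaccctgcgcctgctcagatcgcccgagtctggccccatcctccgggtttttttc
Cetn2: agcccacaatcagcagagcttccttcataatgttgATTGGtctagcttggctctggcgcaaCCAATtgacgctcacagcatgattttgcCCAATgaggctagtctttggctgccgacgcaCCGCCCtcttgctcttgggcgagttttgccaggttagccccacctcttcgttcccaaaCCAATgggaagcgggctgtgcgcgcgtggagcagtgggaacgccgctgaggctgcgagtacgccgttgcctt
Cetn3: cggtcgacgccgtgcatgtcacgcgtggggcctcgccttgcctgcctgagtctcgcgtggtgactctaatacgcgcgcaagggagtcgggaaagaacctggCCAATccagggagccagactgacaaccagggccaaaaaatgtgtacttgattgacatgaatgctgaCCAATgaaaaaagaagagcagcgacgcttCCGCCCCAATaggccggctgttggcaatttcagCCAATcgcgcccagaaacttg
The Rad23b promoter was 70.8% G and C with 31 CpG dinucleotides, a content above that of 91.7% of all 32851 promoters. It held 2 GC boxes, beginning at -244 and -94 from the start, and 1 CCAAT box at -103. Both centrin promoters held 4 CCAAT boxes and 1 GC box each. In Cetn2 the CCAAT boxes began at -215, -189, -161 and -72, at 57.6% G and C with 16 CpG dinucleotides. In Cetn3 they began at -149, -83, -49 and -21, at 56.8% with 19 CpG dinucleotides, and the box at -49 shares its leading base with the reverse GC box at -54. Among all promoters of this length 33.8% held a CCAAT box and 32.7% a GC box on either strand. The octamer ATGCAAAT, searched on both strands, was in none of the 3 and in 1.60% of all promoters. These matches are letters in a sequence and not measured sites.

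Rad23b, the gene labelled -/- in the mutants, checks the labels. Its RNA stood at 229 RPKM in wild-type cells, 43.9 in the Rad23b-null library, 35.8 in knockdown 1 and 52.5 in knockdown 2. All 3 mutant libraries were thus far below the wild type, and none was at 0. The remaining level was 19.1%, 16.1% and 23.3% of the wild type of the same table. The gene-level value does not show which part of the transcript these reads came from. On the log2 scale of RPKM + 1, used for all differences here, the mutants lay -2.36, -2.61 and -2.08 from wild type. In the Rad23b-null library this was rank 103 from the lowest of 15040 genes. The p-values for Rad23b in the authors' deposited table, which rest on no replicates, were 0.001, 0 (as printed to 3 decimals) and 0.004.

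Xpc, the target of the hairpins, stood at 8.73 RPKM in wild-type cells and 8.34 in Rad23b-null cells, against 0.915 in knockdown 1 and 0.895 in knockdown 2. The libraries without a hairpin were close together, and both knockdowns were close to each other about an order of magnitude lower. Knockdown left 10.8% and 10.4% of the wild-type level, while the Rad23b-null library held 95.5% of it. The log2 differences from wild type were -0.06 in Rad23b-null, -2.31 in knockdown 1 and -2.34 in knockdown 2. Against Rad23b-null cells, the parent genotype of the hairpin lines, they were -2.25 and -2.28. In the authors' deposited table the Xpc p-value was 0.908 for Rad23b-null and 0 to 3 decimals for each knockdown. In bulk RNA, fewer cells with a transcript and less RNA per cell cannot be told apart.

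Cetn3 was listed at 85.2 RPKM in wild-type cells, 38.7 in Rad23b-null, 50.4 in knockdown 1 and 46.1 in knockdown 2. Every mutant library was below the wild type, the Rad23b-null library most so, at 45.4% against 60.7% and 55.0% in the knockdowns. The log2 differences from wild type were -1.12, -0.71 and -0.85, so that only the Rad23b-null library was past 2-fold. That call does not survive rescaling: centred on the median of all genes the difference was -0.96, and with equal upper quartiles -0.81. For Cetn3 the p-values in the authors' deposited table were 0.027, 0.116 and 0.068. The same coordinates are listed for the antisense lincRNA Gm17259, at 1.09, 0.703, 0.795 and 0.785 RPKM in the same order. The strand used in counting is not stated, so reads of the pair cannot be told apart, although Gm17259 was listed far below Cetn3.

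Cetn2 was nearer to wild type than Cetn3 in each mutant. It stood at 44.2 RPKM in wild-type cells, 30.4 in Rad23b-null, 37.9 in knockdown 1 and 36.8 in knockdown 2, or 68.8%, 88.1% and 84.7% of wild type. The mutant libraries were all lower, in the same order as for Cetn3, with the knockdowns nearly level. The log2 differences were -0.52, -0.18 and -0.23, and no library was 2-fold from wild type. Scaling to equal upper quartiles turned the direction in the knockdowns (0.09 and 0.02) and left Rad23b-null at -0.22. The authors' deposited table gave Cetn2 p-values of 0.375, 0.738 and 0.669.

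**Figure D1:**
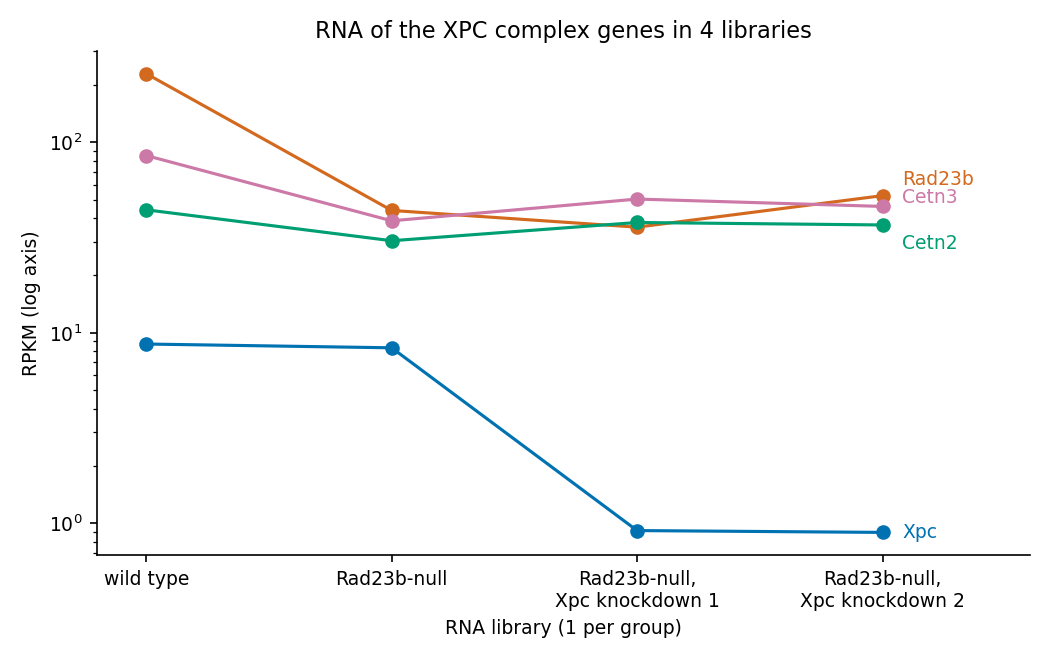
RPKM (log axis) of Xpc, Rad23b, Cetn2 and Cetn3 in the 4 RNA libraries, 1 point per library, with lines joining the points of a gene for reading only. Rad23b is the highest in wild type at 229 RPKM and between 35.8 and 52.5 in the mutants, and Xpc is below 1 RPKM in both knockdowns.

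Set against all genes, 2 of the 4 members were at least 2-fold below wild type in each mutant library. In Rad23b-null these were Rad23b and Cetn3, beside 4.61% of the 15040 genes that reached 1 RPKM in one library or the other. In the knockdowns they were Rad23b and Xpc, beside 3.4% of 14821 genes (knockdown 1) and 3.6% of 14877 (knockdown 2). In each library 1 of these 2 genes or both were the ones the design targeted. No member was 2-fold higher, beside 4.74%, 3.95% and 3.93% of all genes. Centred on the median gene, 462 genes were 2-fold lower and 933 higher in Rad23b-null, against 694 and 713 as deposited. The same centring gave 370 and 750 in knockdown 1, against 504 and 585, and 395 and 762 in knockdown 2, against 535 and 585. The median gene lay at -0.16, -0.14 and -0.14, so the typical gene was listed slightly below wild type too. Against Rad23b-null, Xpc alone was 2-fold lower, beside 2.04% and 1.82% of all genes, and none was 2-fold higher, beside 1.58% and 1.63%. The other members lay at -0.25 and 0.28 (Rad23b), 0.35 and 0.29 (Cetn2) and 0.41 and 0.27 (Cetn3) in knockdowns 1 and 2. Thus both centrins were nearer to wild type in the hairpin lines than in the Rad23b-/- line without a hairpin. For comparison, the middle 68% of all genes spread from -0.24 to 0.27 in knockdown 1 and from -0.20 to 0.23 in knockdown 2. Both centrins lay somewhat above this range in each knockdown. Rad23b lay just below it in knockdown 1 and just above it in knockdown 2. Without replicates these spreads are only a gauge.

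The 2 hairpin lines differed by 2-fold or more in 3.36% of genes, and the middle 68% lay within 0.22. Between them Xpc differed by -0.03, closer than in all but 10.4% of genes, while Rad23b differed by 0.52, further apart than in 91.8% of them. Xpc was below 1 RPKM in both lines, under the limit for the ranked genes, and the added 1 shrinks differences at that level. Relative to genes within 10 Mb, Xpc was -1.91 from Rad23b-null in knockdown 1 and -2.32 in knockdown 2. Cetn2 and Cetn3 differed by -0.06 and -0.14. The remaining Rad23b RNA was thus the least alike of the 4, with knockdown 1 below and knockdown 2 above the Rad23b-null library.

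**Figure D2:**
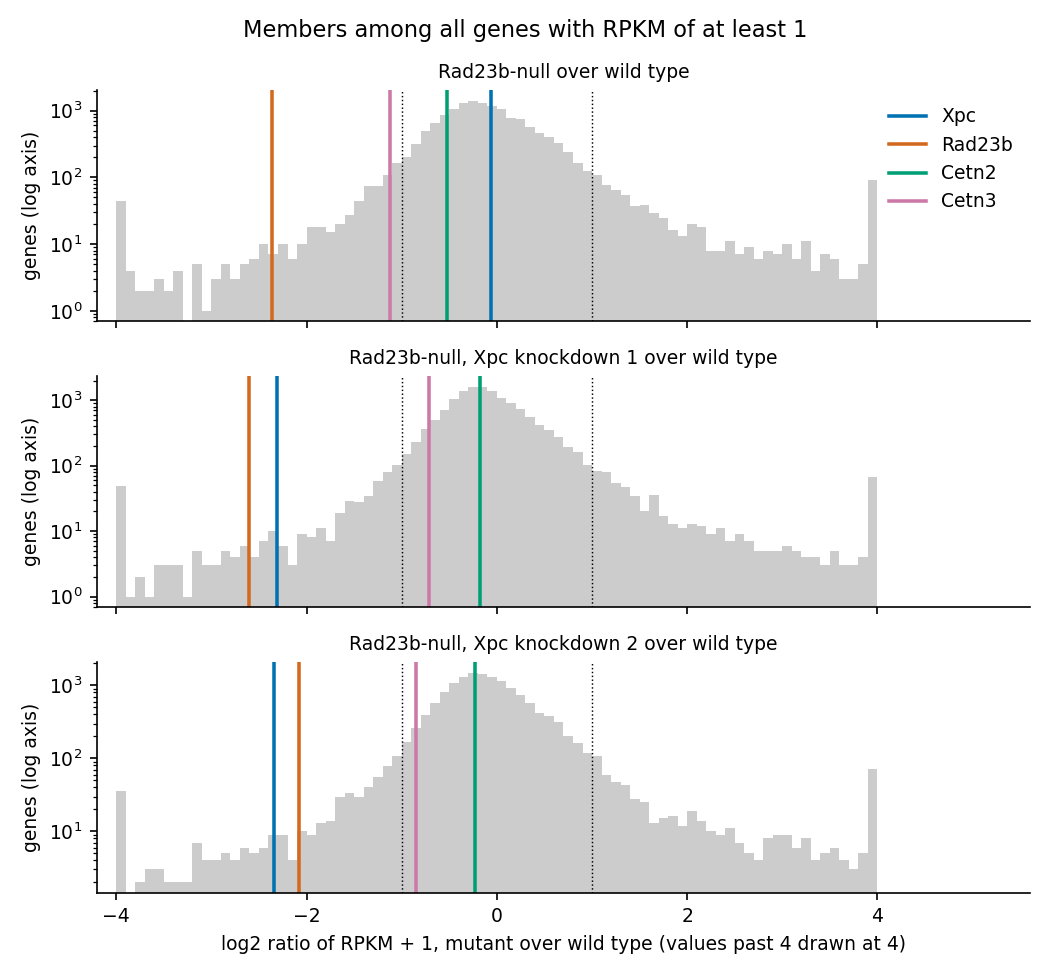
Histogram of log2 ratios of RPKM + 1, mutant over wild type, for all genes with RPKM of at least 1 in either library (log axis of gene numbers, values past 4 drawn at 4), with the members as coloured lines and 2-fold as dotted lines. Rad23b sits in the low tail in all 3 panels, Xpc in the knockdown panels only, and Cetn2 within the bulk.

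The members also differed in standing level, which RPKM allows to be compared per length. In wild-type cells the order was Rad23b (229 RPKM), Cetn3 (85.2), Cetn2 (44.2) and Xpc (8.73), at percentiles 95.9, 87.9, 77.3 and 39.2 of the 13975 genes with at least 1 RPKM. Rad23b was listed 26.3 times as high as Xpc in wild-type cells, 5.26 times in Rad23b-null, and 39.2 and 58.6 times in the knockdowns. Cetn3 was 1.93 times as high as Cetn2 in wild-type cells and between 1.25 and 1.33 times in the mutants. In Rad23b-null cells Rad23b, Cetn3 and Cetn2 lay between 30.4 and 43.9 RPKM, and their order there has no replicate behind it.

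Of the other centrin genes, Cetn1 was listed at 0 in all 4 libraries. Cetn4 was listed at 0.817, 2.18, 2.15 and 2.66 RPKM, on coordinates shared by 8 genes. On the scale of RPKM + 1, which understates changes at such low levels, its log2 differences were 0.81, 0.81 and 1.02. The ratios in the authors' deposited table, without the added 1, were 2.67, 2.71 and 3.31, with p-values of 0.99, 0.986 and 0.985.

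No gene acting before or after XPC in damage recognition and DNA opening was 2-fold from wild type in any mutant, among 24 measured. Of all genes, 4.61% were 2-fold lower and 4.74% higher in Rad23b-null, 3.4% and 3.95% in knockdown 1, and 3.6% and 3.93% in knockdown 2, so a count of 0 in a list of this size is near the background. Their median log2 difference was -0.30 in Rad23b-null, -0.21 in knockdown 1 and -0.31 in knockdown 2, against -0.16, -0.14 and -0.14 for all genes. Protein-coding genes of at least 5 RPKM outside chromosome 6 had medians of -0.23, -0.20 and -0.21. Ddb1, a subunit of the ubiquitin ligase that finds ultraviolet lesions ahead of XPC, stood at 321, 265, 284 and 248 RPKM in wild-type, Rad23b-null, knockdown 1 and knockdown 2 cells. Its partner Cul4b stood at 162, 168, 169 and 143. Rpa1, of the single-strand binding protein that follows TFIIH, stood at 159, 94.6, 94.6 and 98.0, and Ccnh, the cyclin of TFIIH, at 93.5, 77.0, 78.0 and 81.5. Only Rpa1 among these named genes was lower in all 3 mutants by more than 0.6 on the log2 scale.

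Among 14 genes for proteins that work with RAD23 in ubiquitin delivery, none was 2-fold from wild type either, again near the shares over all genes. Their medians were -0.41, -0.41 and -0.45, against -0.23, -0.20 and -0.21 for protein-coding genes of at least 5 RPKM outside chromosome 6. Vcp, the segregase that hands on ubiquitinated proteins, stood at 262, 161, 167 and 159 RPKM. Of the proteasome subunits, Psmd2 stood at 216, 161, 158 and 155, Psmd4, a ubiquitin receptor, at 165, 116, 119 and 108, and Psmd1 at 158, 96.7, 107 and 103. The wild-type library was the highest for each of these 4 genes. Of 11 centrin partners at the nuclear pore and the centriole, 10 were matched (Sfi1 was not) and none was 2-fold apart, near the same shares, with medians of -0.33, -0.15 and -0.26. Shfm1 (86.0, 66.0, 82.3 and 75.3 RPKM) and Pcid2 (70.5, 56.5, 53.2 and 63.8) belong with centrin to the TREX-2 export complex. Nup107, a scaffold nucleoporin, stood at 68.4, 53.7, 52.7 and 52.5 RPKM, and the centriole gene Poc1a at 19.4, 10.4, 10.9 and 12.7.

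RAD23B regions, called by the authors against IgG in each wild-type library, were counted at a member when they lay in its listed locus or within 5 kb, and as shared when the 2 replicates overlapped by at least 1 base. All positions of regions and loci are in mm9. By this count Rad23b had 2 shared regions, Xpc 1, and Cetn2 and Cetn3 none. Among 23518 genes with coordinates of their own 42.6% had a shared region, and among the 8445 of these with wild-type RPKM of at least 1 the share was 77%. Xpc, Rad23b and Cetn2 belong to that expressed set, and of them Cetn2 was in its smaller part without a shared region. Cetn3 shares its coordinates and so is not in the set. The RNA came from JM8.N4 and the ChIP from D3 cells, so the readouts do not come from the same cultures.

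At Rad23b (chr4:55362914-55405109, plus strand) the stronger shared region within 5 kb covered the start, chr4:55362299-55363234 in replicate 1, with 327 RAD23B and 121 IgG reads. Replicate 2 listed chr4:55362322-55363180 with 177 and 57 reads. The authors' deposited folds, scaled for depth, were 2.56 and 3.07, above 80.5% and 82.9% of the regions of their lists. A weaker shared region followed just inside the gene, chr4:55363259-55363733 in replicate 1, with folds of 1.45 and 1.66. Replicate 1 alone listed regions further in, at chr4:55372372-55372714 (80 and 44 reads, fold 1.72) and chr4:55377245-55377651 (82 and 28 reads, fold 2.73). A shared region upstream, chr4:55355473-55355969 in replicate 1, lay 6945 bp before the gene and so outside 5 kb, with folds of 2.15 and 3.30. The GC-rich Rad23b sequence above is the stretch before the RefSeq start. The builds differ, so its overlap with the region at the listed start was not computed.

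At Xpc (chr6:91439298-91465878, minus strand) the shared region also covered the start, chr6:91465510-91466270 in replicate 1 with 287 RAD23B and 148 IgG reads. Replicate 2 listed chr6:91465598-91466242 with 135 and 62 reads. Its folds of 1.84 and 2.16 were near the middle of the lists, above 47.5% and 54.2% of regions. The same region covers the start of Lsm3, a gene of the ring that binds U6 snRNA, which is transcribed the other way from 72 bp away, so the region cannot be given to either gene. Replicate 1 alone listed a region inside Xpc, chr6:91446668-91447010, with 80 and 42 reads and a fold of 1.80. Both starts with a region, Rad23b and Xpc, belong to the majority class: 60.3% of expressed genes with coordinates of their own had a shared region over the start.

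At Cetn2 (chrX:70158870-70163750, minus strand) neither list held a region, and the nearest lay 68.7 kb away in both replicates. Its start lies 145 bp from that of Nsdhl, a sterol synthesis gene transcribed the other way, so neither gene of the pair had a region at the shared promoter. At Cetn3 (chr13:81917771-81936142, plus strand) replicate 1 listed 1 region inside the gene, chr13:81921780-81923077, beginning 4009 bp past the start. It held 388 RAD23B and 297 IgG reads, and its fold of 1.24 was above only 0.586% of the replicate 1 list. In replicate 2 the nearest region was 50.25 kb away. The listed Cetn3 locus, shared with Gm17259, spans 18372 bp, while the RefSeq Cetn3 gene is 16520 bp long. The start used for these distances is the listed one and may differ from that of Cetn3. The lowest maximum of extended reads was 61 in the replicate 1 list and 40 in the replicate 2 list, so a weak region can lie under either limit. Neither centrin thus had a region over its listed mm9 start, while Rad23b had one. Overlap with the printed sequences was not computed for any of the 3.

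**Figure D3:**
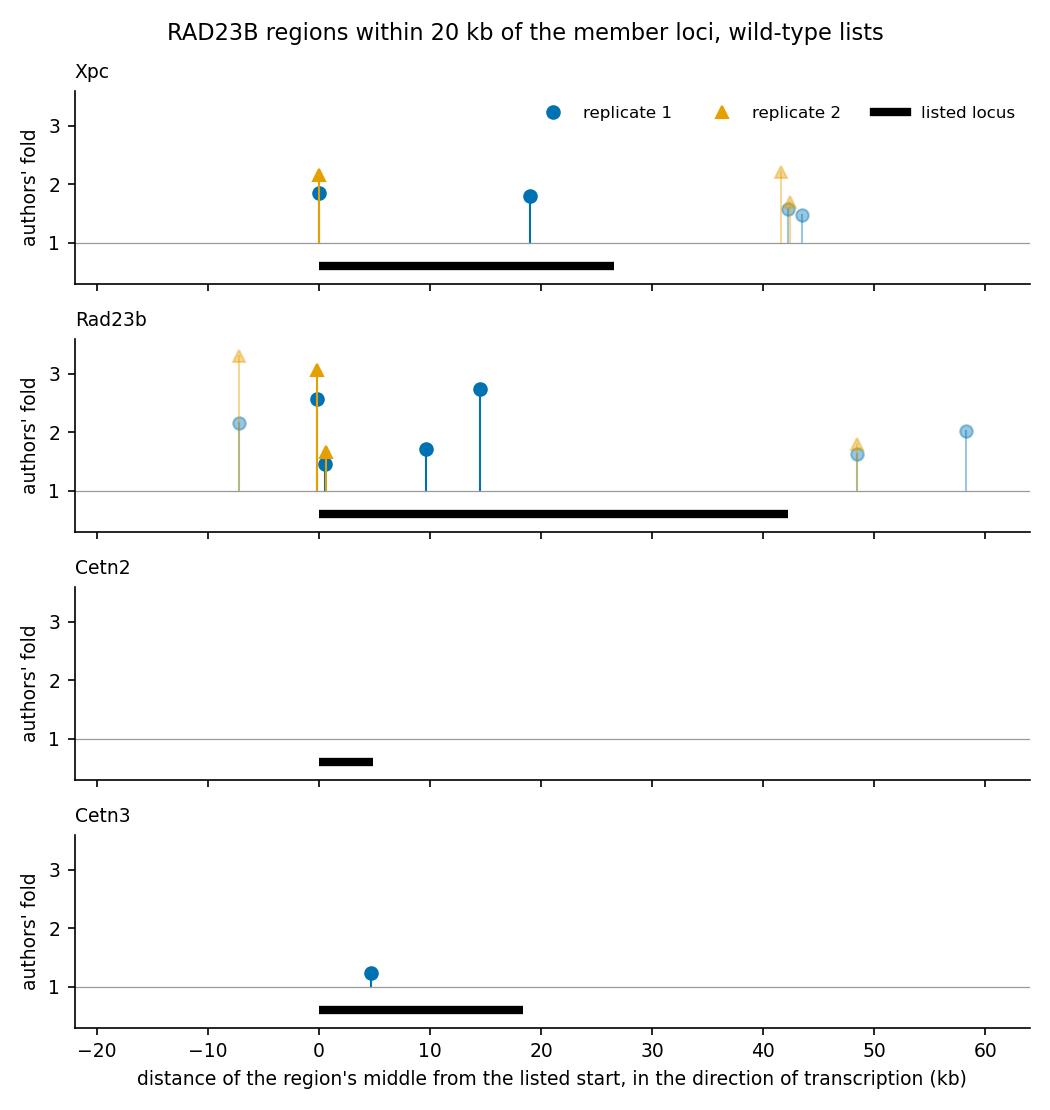
Authors' deposited fold of each RAD23B region within 20 kb of a member, against the distance of its middle from the listed start in kb, for wild-type replicate 1 (circles) and replicate 2 (triangles); the black bar is the listed locus and pale symbols lie beyond 5 kb of it. Both replicates list a region at the starts of Xpc and Rad23b, none at Cetn2, and 1 weak region in replicate 1 alone in Cetn3.

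In the Xpc-/- list no region lay within 5 kb of any of the 4 members, beside 1.82% of all genes with coordinates of their own. The nearest were 3759 kb from Xpc, 6776 kb from Rad23b, 69754 kb from Cetn2 and 19326 kb from Cetn3. That list holds 828 regions, against 59768 and 42364 in the wild-type replicates, and in it the authors' fold is the quotient of the IgG-headed by the RAD23B-headed reads. The values do not settle whether the 2 headings were swapped or IgG served as the sample, and 0 at these genes has to be read with that. The genotype of the Xpc-/- cells cannot be checked in these lists, which hold no RNA.

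The genes next to a member were compared with it, because a neighbour on the same start or in the same locus can share its values. Lsm3, beside Xpc, stood at 130 RPKM in wild-type cells and 79.4, 62.4 and 82.0 in Rad23b-null, knockdown 1 and knockdown 2. Unlike Xpc it was lower in Rad23b-null (log2 difference -0.70) and differed little further in knockdown 2 (-0.63), while knockdown 1 was the lowest (-1.01). Nsdhl, beside Cetn2, stood at 19.0, 8.54, 11.4 and 13.0 RPKM, with differences of -1.07, -0.66 and -0.49. Here the 2 genes had the same order of wild type above both knockdowns above Rad23b-null, with wider distances at Nsdhl.

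Within 500 kb of Xpc 9 of 15 genes had an RPKM of at least 1 in some library. Of these, 1 was at least 2-fold below wild type in Rad23b-null, 4 in knockdown 1 and 0 in knockdown 2, beside 4.61%, 3.4% and 3.6% of all genes. Thus 1 and 0 of 9 are near the background. The 4 were Lsm3, Slc6a6, a taurine transporter gene (28.4, 12.6, 10.9 and 13.9 RPKM), Nup210, a nuclear pore gene (22.1, 14.7, 8.87 and 11.9), and Chchd4, of mitochondrial import (60.2, 37.3, 28.5 and 39.3). Lsm3 and Chchd4 only just passed the limit in knockdown 1, at -1.005 and -1.014. Slc6a6 was already at -1.11 in Rad23b-null and lay at -0.95 in knockdown 2. Tmem43, 845 bp past the end of Xpc, stood at 8.82, 8.90, 6.15 and 9.71, and C130022K22Rik at 10.3, 9.07, 5.66 and 9.87. Fgd5 was higher than wild type in all mutants, at 1.31, 4.90, 2.52 and 4.78 RPKM, past 2-fold in Rad23b-null and knockdown 2. Hdac11 and Fbln2 stayed under 3.1 RPKM in each library, at 3.06 and 2.08 in Rad23b-null. In all 9 neighbours knockdown 1 was below Rad23b-null.

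This low level in knockdown 1 extended far beyond Xpc, as windows of 10 Mb along chromosome 6 show. Both the windows and the stretch from 60 to 100 Mb were chosen after these values had been seen. In its 4 windows the median difference of knockdown 1 from Rad23b-null was -0.23 (6 genes), -0.38 (26), -0.36 (60) and -0.31 (22, beside Xpc). Of the 114 protein-coding genes other than Xpc in the stretch with at least 5 RPKM in a library, 109 were lower in knockdown 1 than in knockdown 2. Their overall median difference from Rad23b-null was -0.35 in knockdown 1 and 0.05 in knockdown 2. On the rest of chromosome 6 (292 genes) the medians were 0.06 and 0.04, and on the other chromosomes (8978 genes) 0.03 and 0.03. The share lower in knockdown 1 than in knockdown 2 was 95.6% in this stretch, 45.2% on the rest of the chromosome and 48.4% elsewhere. Xpc lies in the stretch. Relative to the 85 such genes within 10 Mb, Xpc was -1.91 from Rad23b-null in knockdown 1 and -2.32 in knockdown 2, so both remained past 2-fold. Why the stretch differs was not tested.

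**Figure D4:**
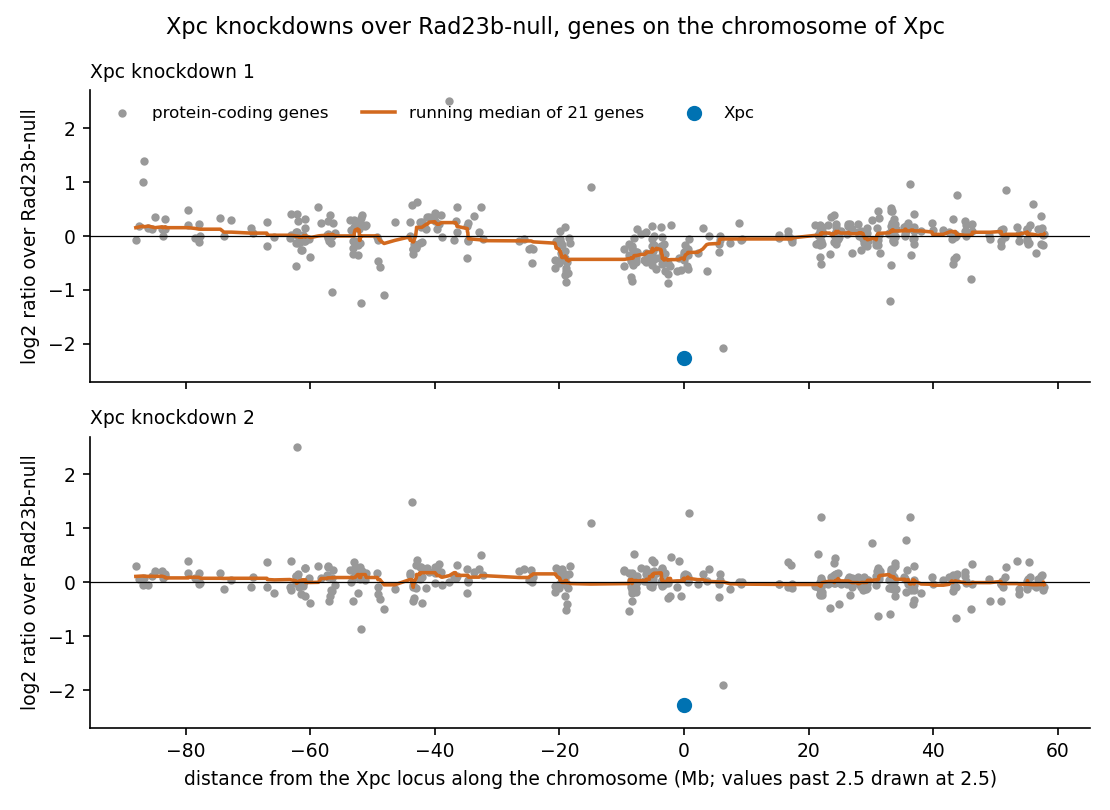
Log2 ratio over Rad23b-null of protein-coding genes on chromosome 6 (RPKM of at least 5 in a library; values past 2.5 drawn at 2.5) against distance from Xpc in Mb, in knockdown 1 (top) and knockdown 2 (bottom), with a running median of 21 genes. In knockdown 1 the running median lies below 0 through a stretch that includes Xpc, and in knockdown 2 it stays near 0.

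Near Rad23b 4 of 17 genes were expressed, and Klf4, a pluripotency factor gene 134903 bp past its end, was at least 2-fold below wild type in all 3 mutants. Klf4 stood at 78.7, 20.1, 30.1 and 29.2 RPKM, with log2 differences of -1.92, -1.32 and -1.38. Between these genes lie Gm12513 (4.46, 3.85, 4.61 and 3.82 RPKM) and Gm12505 (1.48, 1.20, 0.991 and 1.33), neither 2-fold apart in any mutant. On the other side Zfp462 stood at 18.4, 13.3, 11.2 and 13.7. Thus no gene but Klf4 within 500 kb shared the 2-fold difference of Rad23b, and the genes nearest to Rad23b did not. In the authors' deposited table the Klf4 p-values were 0 to 3 decimals, 0.002 and 0.07.

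Near Cetn2 7 of 33 genes were expressed. Nsdhl was 2-fold lower in Rad23b-null only. Pnma5 (7.94, 2.003, 1.33 and 2.85 RPKM) was 2-fold lower in all mutants, and Xlr3a (2.06, 0.362, 0.569 and 0.495) in Rad23b-null and knockdown 2. Zfp185 was higher in all, at 4.74, 9.46, 9.64 and 9.83 RPKM, just short of 2-fold on this scale. Gm14735, F8a and Zfp275 lay within 0.43 of wild type in every mutant. Near Cetn3 5 of 9 genes were expressed. Polr3g, of RNA polymerase III, stood at 65.0, 51.0, 64.3 and 58.4 RPKM and Lysmd3 at 7.13, 6.09, 5.83 and 6.46, so that neither followed Cetn3 past 2-fold in Rad23b-null. Gpr98 stood at 7.87, 5.90, 5.20 and 5.84, and Gm8399, a pseudogene on the same 4-gene coordinates, at 169, 178, 126 and 51.6. Gm8399 in knockdown 2 (-1.67) was the only 2-fold difference from wild type among the expressed neighbours of Cetn3. Members and neighbours thus differed from wild type to unlike extents at all 4 loci.

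**Figure D5:**
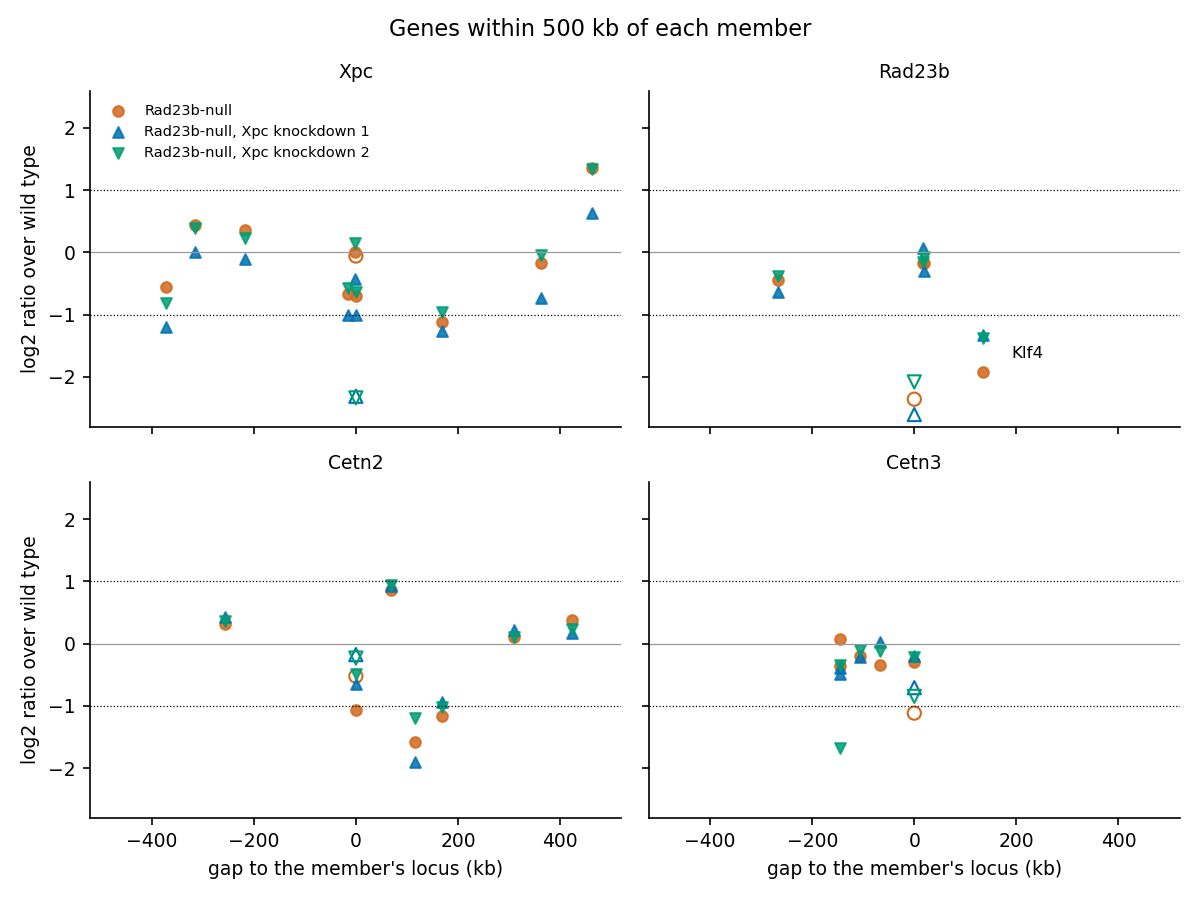
Log2 ratio over wild type (RPKM + 1) of genes within 500 kb of each member with RPKM of at least 1 in a library, against the gap to the member's locus in kb; open symbols are the member itself and dotted lines mark 2-fold. Klf4 lies below -1 in all 3 mutants, and around Xpc the knockdown 1 points lie lowest for most genes.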

How the data were processed

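The authors made the expression tables from poly-A RNA with Cuffdiff, Cufflinks 2.0.2 and TopHat2 2.0.6 (genome build mm9), as the submitters' processing notes name them. The deposited RPKM values, 1 mutant beside wild type per table, were scaled separately per table (wild-type values of the Rad23b-null table were 1.03 and 1.02 times those of the knockdown tables); the wild-type levels printed are those of the Rad23b-null table. Exactly 1 stood in 13889 wild-type values and no 0, so it was read as 0. The deposited p-value and ratio are the authors' own. Lists of RAD23B regions hold deposited read counts and folds, made with Partek per the submitters' processing notes; the sources used here name no aligner or calling settings for ChIP. The headings of the replicate 2 list name the replicate 1 libraries, although its values differ.

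From these, log2 ratios of RPKM + 1 within a table were computed for genes with RPKM of at least 1 in either library, which understates changes of low genes, and knockdowns were set against Rad23b-null through the wild-type columns. Scripts were tested on simulated data. With 1 library per group no p-value was computed; ChIP read counts show counting depth only. Lines with no gene (72 of 36658, 0.00144% of wild-type RPKM) were left out, and 13068 genes share coordinates. Members and lists were chosen with earlier results of these data known. The text names all members and other centrin genes, list genes 2-fold apart plus the 4 of highest wild-type RPKM per list, expressed neighbours within 500 kb, and for each member the 5 genes of most similar log2 ratios; 5031439G07Rik, Mitf and the genes lower in both knockdowns were named after their values were seen. A result on 1 further gene is not reported here. Alternatives were other pseudocounts, filters, scalings, flanks, fold and overlap limits, each replicate left out, and, added after seeing the data, values relative to genes within 10 Mb. Python 3.11.15, numpy 2.4.6, pandas 2.3.3 and matplotlib 3.10.9 were used.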

Additional observations from a re-analysis of the deposited data

How the results depend on the processing

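Of 88 alternatives for the members' log2 differences, 6 changed sign and 3 ended a 2-fold call, all 3 for Cetn3 in Rad23b-null (-0.96 centred, -0.81 with equal upper quartiles, -0.84 relative to genes within 10 Mb). Equal upper quartiles raised the median of all genes by 0.28, 0.24 and 0.23 and gave, in Rad23b-null, knockdown 1 and knockdown 2, -2.05, -2.34 and -1.83 for Rad23b, -0.81, -0.44 and -0.60 for Cetn3 and -0.22, 0.0884 and 0.0179 for Cetn2, with 0.23 for Xpc in Rad23b-null. Xpc in Rad23b-null was also positive after centring (0.10). Xpc in knockdowns 1 and 2 was -3.08 and -3.13 with a pseudocount of 0.1 and -3.22 and -3.26 with none. Relative to genes within 10 Mb, an alternative chosen after seeing the data, Rad23b-null gave -2.09 for Rad23b, 0.26 for Xpc and -0.26 for Cetn2; Xpc in knockdown 1 was -1.72 over wild type and -1.91 over Rad23b-null, and Cetn2 in knockdown 2 was 0.0283. The cause of these shifts was not tested.

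With only genes of own coordinates, 381, 270 and 283 genes were 2-fold lower and 389, 337 and 310 higher in the 3 mutants, since fewer genes were counted; with RPKM of at least 5, 448, 359 and 385 were higher; centred, 462 were lower and 933 higher in Rad23b-null. These counts compare with 694, 504 and 535 lower and 713, 585 and 585 higher as reported. With an authors' fold of at least 2 in both lists, Xpc had 0 shared regions and Rad23b 1, and 4710 genes had one (20.03%); within 10 kb Rad23b had 4. Leaving out a ChIP replicate, regions of the other list alone numbered 1 to 2 at Xpc, 2 to 4 at Rad23b, 0 to 1 at Cetn3 and 0 at Cetn2; those counts of 2, 4 and 1 came from replicate 1 alone. No paired analysis was possible because each RNA group has 1 library, and the ChIP lists give only regions that the authors called in each RAD23B library against IgG, with no count for a region in a library where it was not called. Single RNA libraries and unknown RNA depth limit every difference, and regions under 61 or 40 reads at their maximum were not listed.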

Other observations

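Between the end of Rad23b and Klf4, 134.9 kb in mm9, 7 RAD23B regions were shared by both wild-type replicates. Of these, 3 had an authors' deposited fold of at least 2 in each. These 3 lay 71.7, 83.0 and 84.9 kb past Rad23b. The strongest, chr4:55488148-55488830, had 368 reads with RAD23B and 54 with IgG in replicate 1 (166 and 29 in replicate 2), and folds of 6.40 and 5.57, above 99.8% and 98.5% of the regions of their lists. The others were chr4:55476810-55477764 (folds 4.81 and 4.73) and chr4:55490016-55491231 (3.77 and 4.05). All 3 exceeded the folds at the Rad23b start (2.56 and 3.07). Which gene these regions bear on was not tested. The interval was not among the planned results. Replicate 1 held 38822 shared regions in all, and other intervals of this length were not counted, so whether 7 is many was not tested. The Xpc-/- list held 0 regions in this interval, but it has 828 in all, against 59768 and 42364 in wild type. In it 1.82% of genes with coordinates of their own had a region within 5 kb. Its headings are also unsettled, so the 0 cannot be read as a loss of RAD23B.

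By the mean absolute difference over the 3 log2 ratios to wild type, among 8445 genes with coordinates of their own and wild-type RPKM of at least 1, the genes closest to Rad23b were 1190002H23Rik (0.138), Usp26 (0.16), Tspo2 (0.16), Gm5278 (0.188) and Mir1946b (0.204). All 5 had at most 13.6 RPKM in wild-type cells, against 229 for Rad23b. Closest to Xpc were U6atac (0.285), entries named U6 (0.555, 0.555 and 0.699) and Mir1199 (0.694), all small RNAs. Their low values in both knockdowns follow from how they were chosen. In wild type, Rad23b-null, knockdown 1 and knockdown 2, U6atac was listed at 4.57, 7.11, 0 and 0 RPKM. The U6 entries at 0.555 were each listed at 7.97, 7.37, 0 and 0 RPKM. The closest protein-coding gene to Xpc was 5031439G07Rik at 0.737, and 0 of 7242 lay within 0.25. Within 0.25 there were 510 protein-coding genes for Cetn3 and 3026 for Cetn2. Of all genes, pseudogenes included, the 5 closest to Cetn3 were the pseudogene Gm5560 (0.016), Fam100b (0.0375), Rfx2 (0.0445), Vdac1 (0.0452) and Trim24 (0.0455). Those closest to Cetn2 were Ndufs5 (0.0126), Nsun4 (0.0157), the pseudogene Gm13182 (0.0174), Axin1 (0.0181) and Dars (0.0225).

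At least 2-fold below Rad23b-null were 304 of 14901 genes (2.04%) in knockdown 1 and 271 of 14912 (1.82%) in knockdown 2, and 159 in both. Many of the 159 were small RNAs listed at 0 in all libraries but Rad23b-null, such as Snord110 at 493 RPKM there. Of the 159, 21 were protein-coding and 10 of those had coordinates of their own. Xpc ranked 5 among these 10. The 4 ahead of it, Prmt2, Gm10985, Trps1 and Cryab, were higher in Rad23b-null than in wild type. Prmt2, for example, stood at 5.28, 168, 6.33 and 5.35 RPKM in wild-type, Rad23b-null, knockdown 1 and knockdown 2. Xpc alone of these 5 was level between wild type and Rad23b-null (8.73 and 8.34 RPKM). Mitf, a melanocyte factor gene 6.32 Mb from Xpc on coordinates shared by 2 genes, stood at 1.56, 8.23, 1.15 and 1.43 RPKM.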
